A study of Arabidopsis thaliana with 8 samples.

Results

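Seedlings labelled as mutant in CHR11 and CHR17 were compared with wild-type Col seedlings gene by gene and pathway by pathway. The comparison rests on 4 of the 8 libraries of the series, 2 labelled chr11/17 and 2 of Col, chosen by their labels alone. The chr11/17 plants are given as chr11-/-chr17-/- and the reference as wild type, all in the Col background. The mutants rlt1-/-rlt2-/- (called rlt1/2) and fha2-/-, with 2 libraries each, entered the fit to share the estimate of spread. All plants were whole seedlings of 11 days, raised on Murashige and Skoog plates in 16 h light and 8 h dark at 22 °C, and RNA came from 0.05 g of tissue. The sources used here name neither the alleles nor the origin of the 2 libraries of each genotype. Nothing says that they came from separate plantings, so p-values measure only how far these libraries differ, and that may be technical.

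CHR11 and CHR17 are the paired ATPases of the plant ISWI complex, a chromatin remodeller that slides and spaces nucleosomes along genes. RLT1 and RLT2 are DDT-domain subunits of the same complex. ISWI is best known in Arabidopsis for holding back the switch to flowering and for keeping nucleosome arrays regular over gene bodies. The title of the series concerns a role of a plant-specific ISWI subunit in fertility and pistil growth.

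The targeted transcripts were read first. CHR11 (AT3G06400) had 73.4 and 69.7 CPM in the libraries labelled chr11/17, against 47.2 and 46.3 CPM in Col. It was higher, not lower, with a log2 difference of 0.61 ± 0.08 (± SE) and an adjusted p of 2.84e-05 in the quasi-likelihood test of edgeR. CHR17 (AT5G18620) had 22.6 and 22.9 CPM in those libraries and 17.2 and 22.5 CPM in Col, was not called (it was by total counts, at 0.48, and without Col replicate 2, at 0.40), and overlaps a neighbouring gene, which leaves its counts uncertain. Gene-level counts cannot tell an intact message from a disrupted one. The group is therefore named by its label, and every direction below rests on it.

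Levels are given as CPM, a count scaled with TMM factors to a common library size, and fold changes as log2 of chr11/17 over Col, which stand in parentheses with their standard error. A gene was called when its edgeR adjusted p over all 20866 genes tested was under 0.05, and every gene named below was called unless a sentence says otherwise. The genes were named by a rule of size, level or position within each list; those marked as outside the rule were chosen after their values were seen. Calls were so frequent that every count of members has to be read against the background: 7255 genes were called higher (34.8%) and 7171 lower (34.4%), in all 69.1%. The median of all genes tested was -0.01. When libraries were scaled by total counts in place of TMM factors, the median of all genes shifted by 0.28 and the calls split into 9243 higher and 5227 lower. No gene was called in opposite directions under both scalings. The split is added below for each list whose balance of calls moved by over 10 percentage points with it. The 100 highest Col genes took 15.2% and 13.9% of all counts in the libraries labelled chr11/17, against 40.7% and 38.8% in Col. Of them 86 were called lower and 8 higher. They were picked for being high in Col, which by itself tilts the shares and the split towards a fall. The 20 highest genes of each library, picked within it, took 8.488% and 7.729% in the libraries labelled chr11/17 and 22.52% and 21.35% in Col. At least 4-fold differences were found in 1267 genes called higher and 1274 called lower, and at least 32-fold differences in 230 and 128 genes. Totals lay between 20962194 and 22012120 counts in all 8 libraries. Calls were spread evenly over the chromosomes, where 33.6% to 35.7% of the genes tested were called higher. With genes cut by level into 4 bins of equal size, the lowest bin had 26.6% called higher and 25.4% lower, and the highest 46.3% and 36.2%.

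**Figure D1:**
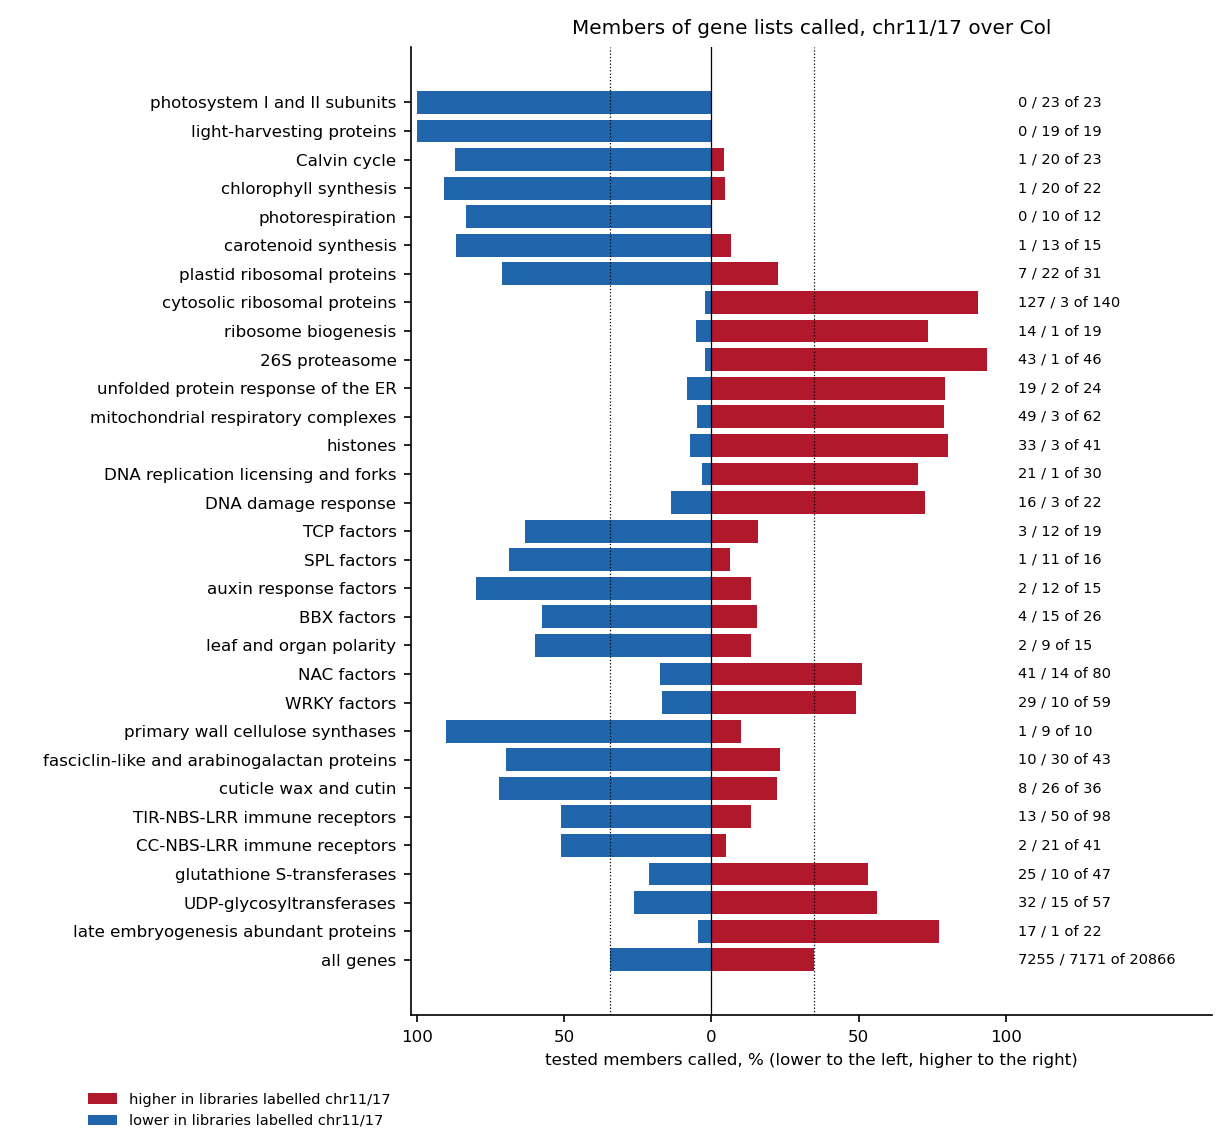
Share of the tested members of 30 gene lists, and of all genes, that were called higher (right, red) or lower (left, blue) in the libraries labelled chr11/17 relative to Col, in percent; dotted lines mark the shares over all genes. The numbers at the right are members higher, members lower and members tested, for example 43 and 1 of 46 for the 26S proteasome.

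Genes for photosynthesis were lower in the libraries labelled chr11/17. Photosynthesis needs light-harvesting antennae, the photosystems, the carbon-fixing Calvin cycle and the pigments that the antennae bind, and many of the genes for these proteins sit in the nucleus. All 23 tested genes for photosystem subunits were called lower, with a median log2 fold change of -1.80. The same held for all 19 light-harvesting genes (median -2.16). For the Calvin cycle 20 of 23 genes were called lower and 1 higher (median -1.61). Photorespiration, which recycles the product of the oxygenase reaction of Rubisco, had 10 of 12 genes lower and none higher (median -1.40). Summed over the list, the light-harvesting genes had 39860 and 28210 CPM in the libraries labelled chr11/17, against 173800 and 156400 CPM in Col. The sums thus did not overlap, and the libraries labelled chr11/17 also differed between themselves.

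The single members given here were named for the size of their change, so fold changes beyond the medians follow from that choice. PSAF (AT1G31330), a subunit of photosystem I, had 823 and 708 CPM in the libraries labelled chr11/17 and 4772 and 4139 CPM in Col (-2.54 ± 0.13; edgeR adjusted p = 4.03e-09). PSBQ-2 (AT4G05180) of the oxygen-evolving complex had 561 and 387 CPM in the chr11/17-labelled libraries and 2688 and 2469 CPM in Col (-2.44 ± 0.16). HPR (AT1G68010), the peroxisomal hydroxypyruvate reductase of photorespiration, had 255 and 249.9 CPM in the chr11/17-labelled libraries and 1190.4 and 1046 CPM in Col (-2.15 ± 0.10). In each of these genes both chr11/17-labelled libraries lay under both Col libraries. Naming by size asked for libraries that did not overlap, so this separation is no added support.

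Genes of pigment synthesis followed the same direction. Chlorophyll synthesis had 20 of 22 genes called lower and 1 higher (median -1.66), and carotenoid synthesis 13 of 15 lower and 1 higher (median -1.09). CRD1 (AT3G56940, overlapping a neighbour), the cyclase that closes the fifth ring of chlorophyll, had 785 and 677 CPM in the libraries labelled chr11/17 and 3305 and 2865 CPM in Col (-2.08 ± 0.12). GUN5 (AT5G13630), the large subunit of magnesium chelatase, had 509 and 459.6 CPM in the chr11/17-labelled libraries and 1605 and 1459.7 CPM in Col (-1.66 ± 0.10). PDS3 (AT4G14210), phytoene desaturase, fell to 29.9 and 29.5 CPM, against 78.99 and 77.95 CPM in Col (-1.40 ± 0.09). Fatty acid synthesis, which in plants takes place in the plastid, had 14 of 24 genes lower and 5 higher (median -0.48; 8 higher and 12 lower by total counts). FAD6 (AT4G30950), a plastid desaturase, had 158 and 158 CPM in the chr11/17-labelled libraries and 547 and 519 CPM in Col (-1.76 ± 0.09).

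Genes of starch synthesis and breakdown stood apart from the photosynthesis, pigment and fatty acid lists, with 17 of 29 called higher and 10 lower (median 0.56; 17 higher and 6 lower by total counts). APL3 (AT4G39210), a regulatory subunit of ADP-glucose pyrophosphorylase, had 457 and 410.4 CPM in the libraries labelled chr11/17 and 21.98 and 28.2 CPM in Col (4.11 ± 0.18; edgeR adjusted p = 1.54e-09). ISA3 (AT4G09020), a debranching enzyme of starch breakdown, had 249 and 224 CPM in the chr11/17-labelled libraries and 19.5 and 21.6 CPM in Col (3.52 ± 0.12). BAM5 (AT4G15210), a beta-amylase, had 288 and 276 CPM in the chr11/17-labelled libraries and 26.3 and 29.1 CPM in Col (3.35 ± 0.19). GPT2 (AT1G61800), which brings glucose 6-phosphate into plastids and was among the 8 highest genes outside the lists, had 476 and 501 CPM in the chr11/17-labelled libraries and 3.01 and 3.41 CPM in Col (7.24 ± 0.14).

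Genes for cytosolic ribosomal proteins moved the other way from those of photosynthesis. Of 297 tested genes for ribosomal proteins, 230 were called higher and 42 lower (median 0.64). The list was then split by the location that the reference annotation notes for each protein, a step added after its values were seen. Of 140 genes noted as cytosolic, 127 were higher and 3 lower (median 0.71). Of 31 noted as plastid but not cytosolic, 7 were higher and 22 lower (median -0.91). The 6 noted as mitochondrial were all higher, and 120 genes with no such note had 90 higher and 17 lower.

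The fold changes of cytosolic subunits were modest and shared by most of the family. AT2G34480, a member of the L18ae family, had 1186 and 1116 CPM in the libraries labelled chr11/17 and 558 and 536 CPM in Col (1.07 ± 0.09). AT5G39850, a ribosomal protein S4, had 38.02 and 39.1 CPM in the chr11/17-labelled libraries and 8.55 and 8.85 CPM in Col (2.15 ± 0.11). Many of these genes have near-identical copies, so the counts of a single copy are less certain than the sum of the list. The plastid subunits RPL21C (AT1G35680) and RPS1 (AT5G30510), both outside the naming rule, had log2 fold changes of -1.82 ± 0.10 and -1.15 ± 0.09. Ribosome biogenesis had 14 of 19 genes higher and 1 lower (median 0.66). NAP57 (AT3G57150), the dyskerin-type pseudouridine synthase of ribosomal RNA, had 257 and 254 CPM in the chr11/17-labelled libraries and 89.4 and 120.4 CPM in Col (1.28 ± 0.16). NUC-L2 (AT3G18610), a nucleolin, had 10.03 and 8.97 CPM in the chr11/17-labelled libraries and 0.603 and 0.693 CPM in Col (3.86 ± 0.31).

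Protein turnover and folding genes rose with them. The 26S proteasome degrades proteins tagged with ubiquitin, and 43 of 46 tested subunit genes were called higher and 1 lower (median 0.90). Its alpha-ring genes PAB1 (AT1G16470) and PAE1 (AT1G53850) were among the named members. PAB1 had 209.9 and 179.7 CPM in the libraries labelled chr11/17 and 65.5 and 68.3 CPM in Col (1.54 ± 0.09; edgeR adjusted p = 2.24e-08). PAE1 had 121 and 109 CPM in the chr11/17-labelled libraries and 45.2 and 44.5 CPM in Col (1.36 ± 0.09). In the endoplasmic reticulum, where secreted proteins fold, 19 of 24 chaperone and stress-response genes were higher and 2 lower (median 1.11). BIP1 (AT5G28540), the luminal HSP70, had 352 and 359 CPM in the chr11/17-labelled libraries and 129 and 116 CPM in Col (1.54 ± 0.09). PDIL1-2 (AT1G77510), a protein disulfide isomerase, had 210.2 and 194 CPM in the chr11/17-labelled libraries and 53.7 and 52.9 CPM in Col (1.92 ± 0.09). BZIP60 (AT1G42990), a transcription factor of the response and outside the naming rule, had a log2 fold change of 0.87 ± 0.10. Autophagy genes were called in both directions, 7 higher and 7 lower of 22 (11 higher and 4 lower by total counts).

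Mitochondrial respiratory complexes had 49 of 62 nuclear genes higher and 3 lower (median 0.77). AT3G52730, a subunit of the ubiquinol-cytochrome c reductase, had 298 and 265 CPM in the libraries labelled chr11/17 and 119 and 112 CPM in Col (1.28 ± 0.10). Alternative oxidases, alternative NAD(P)H dehydrogenases and uncoupling proteins split, with 7 of 13 higher and 4 lower (8 higher and 2 lower by total counts; 2 lower without Col replicate 1). The uncoupling protein PUMP1 (AT3G54110, overlapping a neighbour) had 150.5 and 139 CPM in the chr11/17-labelled libraries and 51.9 and 51.5 CPM in Col (1.49 ± 0.09). NDA1 (AT1G07180), an internal alternative dehydrogenase, had 12.98 and 14.5 CPM in the chr11/17-labelled libraries and 110.2 and 92.5 CPM in Col (-2.88 ± 0.12).

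**Figure D2:**
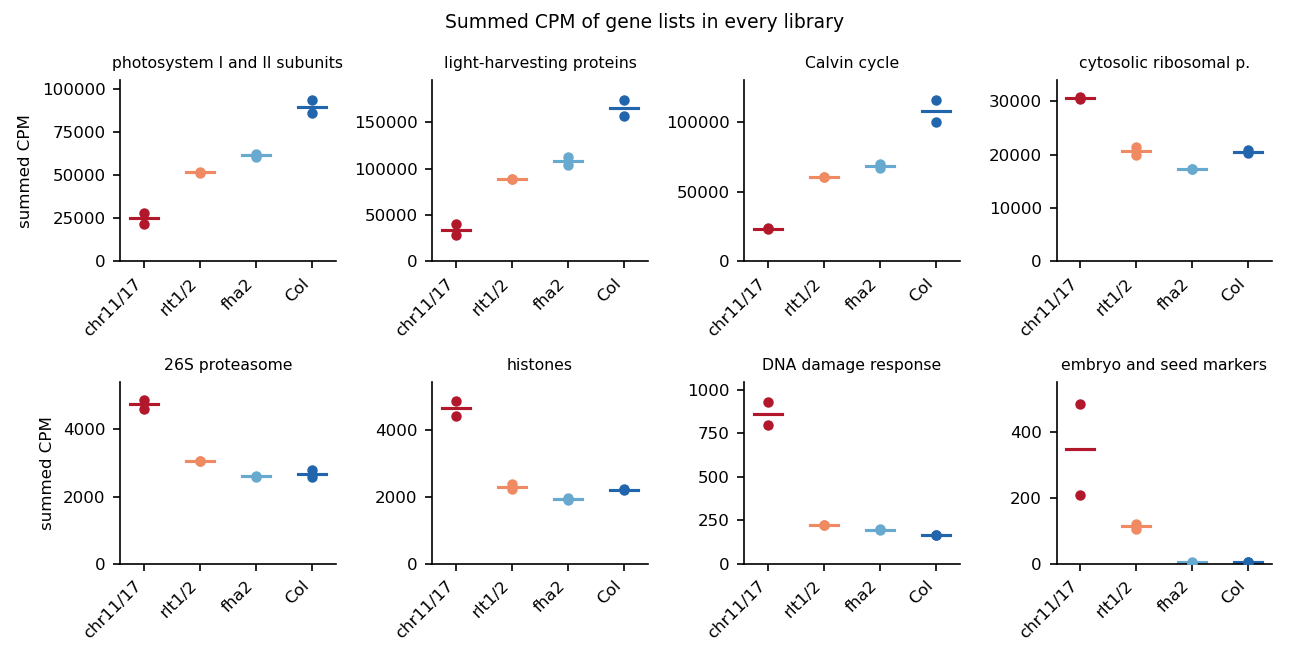
Summed CPM (TMM-scaled) of the members of 8 gene lists in each library of the 4 genotypes; points are libraries and bars the mean of 2. Photosystem, light-harvesting and Calvin cycle sums were lowest in the libraries labelled chr11/17, whose sums of the proteasome, histone and DNA damage lists were above those of every other library.

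Genes of the DNA damage response included large increases. Breaks and stalled forks activate the kinases ATM and ATR, which act through the transcription factor SOG1 to switch on repair genes and inhibitors of the cell cycle. Of 22 tested genes of the list, 16 were called higher and 3 lower, with a median log2 fold change of 2.11 (17 higher and 1 lower by total counts; 1 lower without Col replicate 2 or without chr11/17 replicate 2). SMR7 (AT3G27630), an inhibitor of cyclin-dependent kinases induced by DNA damage, had 124 and 87.1 CPM in the libraries labelled chr11/17 and 0.329 and 0.640 CPM in Col. Its log2 fold change was 7.75 ± 0.30 (edgeR adjusted p = 5.79e-10). PARP2 (AT4G02390), a poly(ADP-ribose) polymerase, had 72.7 and 54.1 CPM in the chr11/17-labelled libraries and 5.43 and 5.76 CPM in Col (3.50 ± 0.15). The libraries labelled chr11/17 were above those of Col in both of these genes, a separation that naming by size required.

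Further genes of this response were named outside the rule. BRCA1 (AT4G21070), of recombination repair, had 10.2 and 8.50 CPM in the chr11/17-labelled libraries and 1.48 and 1.55 CPM in Col (2.62 ± 0.21), and XRI1 (AT5G48720), required for repair after ionising radiation, 63.7 and 53.9 CPM in the chr11/17-labelled libraries and 8.22 and 9.60 CPM in Col (2.72 ± 0.12). GMI1 (AT5G24280), named for its induction by gamma irradiation, had a log2 fold change of 2.59 ± 0.18 and the mitotic cyclin CYCB1;1 (AT4G37490), which damage also induces, one of 2.15 ± 0.15. SMR5 (AT1G07500), which overlaps a neighbour, had 20.9 and 12.9 CPM in the chr11/17-labelled libraries and was at 0 counts in both Col libraries. The upstream regulators did not share these sizes. SOG1 (AT1G25580) had 8.89 and 8.33 CPM in the chr11/17-labelled libraries and 7.18 and 6.34 CPM in Col (0.35 ± 0.14; edgeR adjusted p = 0.0472), a call that DESeq2, limma-voom and most other alternatives did not make. By contrast, ATM (AT3G48190) had 4.81 and 4.89 CPM in the chr11/17-labelled libraries and 11.1 and 11.4 CPM in Col (-1.22 ± 0.12). Among all inhibitors of cyclin-dependent kinases, 7 of 12 were higher and 2 lower (9 higher and 1 lower by total counts). KRP6 (AT3G19150) had 65.6 and 55.7 CPM in the chr11/17-labelled libraries and 19.2 and 13.6 CPM in Col (1.89 ± 0.14).

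**Figure D3:**
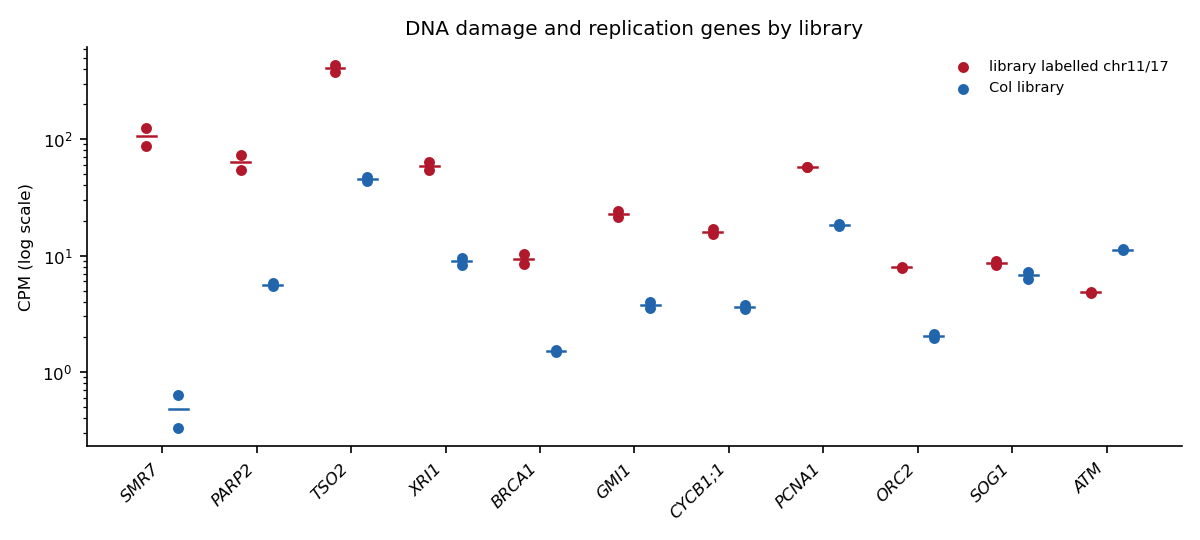
CPM (log scale) of 11 genes of the DNA damage and replication lists in the libraries labelled chr11/17 (red, left of each pair) and in Col (blue, right); points are libraries and bars the mean of 2. Both libraries labelled chr11/17 lie above both Col libraries in all genes shown other than ATM, where they lie below. Part of these genes were named by a rule that required such separation, and others after their values were seen.

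Most tested genes for DNA replication and for histones were called higher in the same libraries. Of 30 genes for origin licensing and replication forks, 21 were called higher and 1 lower (median 0.86). PCNA1 (AT1G07370), the sliding clamp, had 57.7 and 57.6 CPM in the libraries labelled chr11/17 and 18.03 and 18.8 CPM in Col (1.65 ± 0.09). ORC2 (AT2G37560), a subunit of the origin recognition complex, had 7.85 and 7.95 CPM in the chr11/17-labelled libraries and 1.97 and 2.13 CPM in Col (1.94 ± 0.20). TSO2 (AT3G27060), a ribonucleotide reductase subunit that supplies deoxynucleotides, had 432 and 380.3 CPM in the chr11/17-labelled libraries and 47.6 and 43.3 CPM in Col (3.16 ± 0.10), and it overlaps a neighbouring gene. Histone genes had 33 of 41 higher and 3 lower (median 1.15). AT1G09200, which encodes the replication-type histone H3.1, had 738 and 636 CPM in the chr11/17-labelled libraries and 175 and 169.5 CPM in Col (2.00 ± 0.11). Outside the naming rule, H3.3 from AT5G10980 had a log2 fold change of 1.15 ± 0.09, and the damage-linked variant gene H2AXA (AT1G08880) one of 1.58 ± 0.09. The centromeric histone HTR12 (AT1G01370) was not called other than by total counts (0.52), with 4.54 and 5.27 CPM in the chr11/17-labelled libraries and 3.73 and 4.59 CPM in Col. Histone copies are close in sequence, so reads may be shared between them.

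The Polycomb list held genes whose products repress developmental genes, in part through methylation of histone H3. It also held a gene that opposes them, REF6, and its members were called in both directions. Of 21 tested, 5 were higher and 10 lower, with a median of -0.26, and this balance turned to 8 higher and 3 lower by total counts. Without Col replicate 1, 2 were higher and 6 lower. REF6 (AT3G48430), which removes that mark, had 13.4 and 11.3 CPM in the libraries labelled chr11/17 and 18.5 and 24.8 CPM in Col (-0.81 ± 0.18).

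Several families of growth regulators were mainly lower. TCP factors control cell division and expansion in leaves, SPL factors promote the change from juvenile to adult growth, and auxin response factors carry out the transcriptional response to auxin. TCP genes had 3 of 19 higher and 12 lower (median -1.17). SPL genes had 1 of 16 higher and 11 lower (median -1.04), and auxin response factors 2 of 15 higher and 12 lower (median -0.95). TCP14 (AT3G47620) had 14.02 and 15.6 CPM in the libraries labelled chr11/17 and 61.4 and 67.98 CPM in Col (-2.12 ± 0.11; edgeR adjusted p = 6.00e-09). TCP4 (AT3G15030), a regulator of leaf maturation outside the naming rule, had 8.98 and 14.97 CPM in the chr11/17-labelled libraries and 45.3 and 37.9 CPM in Col (-1.79 ± 0.18). The exceptions included PTF1, also known as TCP13 (AT3G02150), with 31.4 and 33.5 CPM in the chr11/17-labelled libraries and 6.63 and 5.28 CPM in Col (2.45 ± 0.13). SPL3 (AT2G33810) had 1.59 and 1.32 CPM in the chr11/17-labelled libraries and 7.56 and 9.01 CPM in Col (-2.51 ± 0.22). ARF6 (AT1G30330), which acts in flower and stem growth, had 3.86 and 5.91 CPM in the chr11/17-labelled libraries and 25.05 and 23.7 CPM in Col (-2.31 ± 0.15). ARF11 (AT2G46530) had 0.181 and 0.170 CPM in the chr11/17-labelled libraries and 6.58 and 8.53 CPM in Col (-5.38 ± 0.32).

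B-box factors, many of which act in light signalling, had 4 of 26 higher and 15 lower (median -0.84; 7 higher and 13 lower by total counts). BBX27 (AT1G68190) was almost lost, with 0.862 and 0.850 CPM in the libraries labelled chr11/17 and 89.3 and 99.2 CPM in Col (-6.77 ± 0.14; edgeR adjusted p = 1.12e-11). BBX31 (AT3G21890) rose, with 19.4 and 17.9 CPM in the chr11/17-labelled libraries and 1.1 and 1.44 CPM in Col (3.87 ± 0.23). Of 15 genes that set the upper and lower sides of organs, 2 were higher and 9 lower (median -0.60; 3 higher and 7 lower by total counts). YAB3 (AT4G00180), a YABBY factor of the lower side, had 9.62 and 14.2 CPM in the chr11/17-labelled libraries and 73.5 and 72.2 CPM in Col (-2.61 ± 0.14). Dof factors had 2 of 13 higher and 8 lower (median -0.59), and bHLH factors 31 of 109 higher and 49 lower (median -0.30). HBI1 (AT2G18300), a bHLH factor that promotes cell elongation, had 3.40 and 4.08 CPM in the chr11/17-labelled libraries and 81.1 and 85.8 CPM in Col (-4.47 ± 0.12).

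Carpel and gynoecium regulators, listed because the series concerns the pistil, were called in both directions in these seedlings. Of 29 genes on the list 23 had enough reads to test, with 6 higher and 8 lower (median -0.22, and above 0 by total counts; 3 higher and 8 lower of 19 without overlapping genes). RPL (AT5G02030), the homeodomain protein REPLUMLESS of the fruit, had 1.95 and 2.30 CPM in the libraries labelled chr11/17 and 15.8 and 12.8 CPM in Col (-2.75 ± 0.17). NGA2 (AT3G61970), of the NGATHA group that specifies style and stigma, had 0.408 and 0.553 CPM in the chr11/17-labelled libraries and 5.92 and 4.21 CPM in Col (-3.38 ± 0.30). SHP2 (AT2G42830), an ovule and valve margin MADS gene outside the naming rule, had 0.953 and 1.53 CPM in the chr11/17-labelled libraries and 0.219 and 0.320 CPM in Col (2.18 ± 0.46). MADS-box genes as a family had 12 of 39 higher and 17 lower (16 higher and 14 lower by total counts). AGL15 (AT5G13790), a MADS factor of embryos, had 13.9 and 10.97 CPM in the chr11/17-labelled libraries and 1.43 and 1.92 CPM in Col (2.89 ± 0.21).

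NAC and WRKY factors, which include many regulators of senescence, drought and defence, had more members called higher than lower. NAC genes had 41 of 80 higher and 14 lower (median 0.42), and WRKY genes 29 of 59 higher and 10 lower (median 0.41; 33 higher and 5 lower by total counts). NAC019 (AT1G52890), induced by drought and abscisic acid, had 49.6 and 43.3 CPM in the libraries labelled chr11/17 and 0.493 and 1.12 CPM in Col (5.83 ± 0.24; edgeR adjusted p = 7.80e-10). WRKY45 (AT3G01970) had 138 and 125 CPM in the chr11/17-labelled libraries and 10.96 and 13.2 CPM in Col (3.44 ± 0.13). ERF and DREB factors had 21 of 52 higher and 11 lower (28 higher and 6 lower by total counts; 6 lower without Col replicate 1), MYB factors 28 of 92 higher and 23 lower (32 higher and 15 lower by total counts), and homeodomain factors 24 of 76 higher and 33 lower. HB-7 (AT2G46680), a homeodomain factor of the drought response, had 389 and 369 CPM in the chr11/17-labelled libraries and 39.8 and 43.1 CPM in Col (3.19 ± 0.11). MYB112 (AT1G48000) had 25.95 and 26.96 CPM in the chr11/17-labelled libraries and 0.767 and 0.853 CPM in Col (5.02 ± 0.17).

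**Figure D4:**
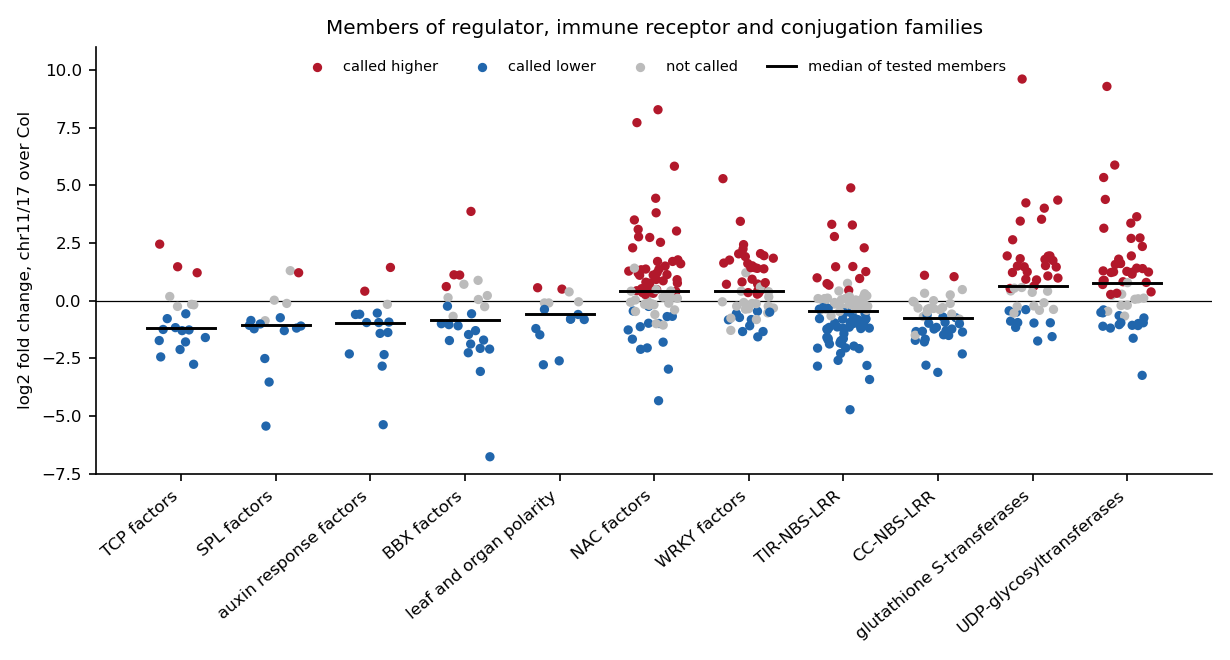
Log2 fold change, chr11/17 over Col, of every tested member of 11 families or lists; red points were called higher, blue lower and grey not called, and the black bar is the median. Medians lie below 0 for TCP, SPL, auxin response, BBX and polarity genes and for both classes of immune receptor, and above 0 for NAC, WRKY, glutathione S-transferase and UDP-glycosyltransferase genes.

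Immune receptors of the nucleotide-binding, leucine-rich repeat class, which detect pathogen effectors inside the cell, were called lower more often than higher. Among those with a TIR domain, 13 of 98 were called higher and 50 lower (median -0.46). Among those with a coiled coil, 2 of 41 were higher and 21 lower (median -0.74). RLM3 (AT4G16990), a TIR protein of resistance to fungi, had 26.6 and 29.2 CPM in the libraries labelled chr11/17 and 113 and 119.8 CPM in Col (-2.06 ± 0.09). AT3G04210, of the TIR-NBS class, had 0.817 and 0.850 CPM in the chr11/17-labelled libraries and 24.3 and 20.3 CPM in Col (-4.73 ± 0.20). AT1G58602, a receptor of the coiled-coil list, had 4.45 and 8.21 CPM in the chr11/17-labelled libraries and 55.7 and 53.9 CPM in Col (-3.11 ± 0.18). Many receptors lie in tandem clusters of related copies, which limits the certainty of single members. Set against rlt1/2, 2 TIR-class genes rose and 53 fell in chr11/17, and 2 and 17 of the coiled-coil class. Relative to Col, rlt1/2 itself had 17 TIR-class genes higher and 24 lower, and 2 and 14 of the coiled-coil class.

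Enzymes that conjugate small molecules were called higher more often than lower. Glutathione S-transferases had 25 of 47 higher and 10 lower (median 0.64; 30 higher and 6 lower by total counts), and UDP-glycosyltransferases 32 of 57 higher and 15 lower (median 0.78). GSTF6 (AT1G02930), a transferase used in camalexin synthesis, had 507 and 636 CPM in the libraries labelled chr11/17 and 52.7 and 52.2 CPM in Col (3.45 ± 0.18). UGT76E12 (AT3G46660) had 102 and 96.1 CPM in the chr11/17-labelled libraries and 1.53 and 1.81 CPM in Col (5.88 ± 0.14). Protease inhibitors had 10 of 19 higher and 2 lower (median 0.77). TI1 (AT2G43510), a trypsin inhibitor, had 544 and 521 CPM in the chr11/17-labelled libraries and 6.47 and 6.40 CPM in Col (6.37 ± 0.13; edgeR adjusted p = 8.99e-12). Cytochrome P450 genes were close to balanced, 70 higher and 59 lower of 178 (84 higher and 46 lower by total counts), as were class III peroxidases, 24 and 20 of 65 (29 higher and 14 lower by total counts). Indole glucosinolate and camalexin genes had 11 of 22 higher and 6 lower. TGG2 (AT5G25980), a myrosinase that splits glucosinolates and is known from guard cells and phloem, had 17.3 and 10.2 CPM in the chr11/17-labelled libraries and 1468 and 1533 CPM in Col (-6.77 ± 0.20).

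Genes of primary wall cellulose, arabinogalactan proteins and the cuticle were called lower far more often than higher, and other wall lists were mixed. Cellulose synthase and related genes of primary walls had 9 of 10 lower and 1 higher (median -0.87). CESA6 (AT5G64740), a catalytic subunit, had 27.3 and 28.4 CPM in the libraries labelled chr11/17 and 70.6 and 69.4 CPM in Col (-1.33 ± 0.09; edgeR adjusted p = 3.11e-08). Secondary wall genes had 9 of 18 lower and none higher (median -0.49; 4 higher and 7 lower by total counts; 2 higher and 8 lower without Col replicate 2). Fasciclin-like and other arabinogalactan proteins had 10 of 43 higher and 30 lower (median -1.1). FLA9 (AT1G03870) had 21.3 and 38.9 CPM in the chr11/17-labelled libraries and 228 and 201 CPM in Col (-2.83 ± 0.21). Expansins, which loosen walls, had 7 of 25 higher and 13 lower (median -0.56; 10 higher and 12 lower by total counts). EXPA8 (AT2G40610) had 3.63 and 3.27 CPM in the chr11/17-labelled libraries and 245 and 221 CPM in Col (-6.08 ± 0.21). Xyloglucan endotransglucosylases had 10 of 29 higher and 17 lower. Among the higher ones XTH24 (AT4G30270) had 325 and 357 CPM in the chr11/17-labelled libraries and 51.96 and 46.4 CPM in Col (2.79 ± 0.14).

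Wax and cutin genes, which build the cuticle of the shoot, had 8 of 36 higher and 26 lower (median -0.83). KCS12 (AT2G28630), a synthase of very long fatty acids, had 0.998 and 1.23 CPM in the libraries labelled chr11/17 and 17.8 and 21.2 CPM in Col (-4.12 ± 0.21). LTPG1 (AT1G27950, overlapping a neighbour), a surface lipid transfer protein, went against its list with 412 and 418 CPM in the chr11/17-labelled libraries and 314 and 300.1 CPM in Col (0.43 ± 0.09). Suberin genes, which act mainly in roots, had 7 of 15 higher and 1 lower (median 0.36), a count that fell to 3 higher without Col replicate 2. Lignin and phenylpropanoid genes had 11 of 20 higher and 4 lower (median 0.41). CAD5 (AT4G34230), a cinnamyl alcohol dehydrogenase, had 352 and 353 CPM in the chr11/17-labelled libraries and 34.9 and 34.4 CPM in Col (3.35 ± 0.09).

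Ethylene and brassinosteroid genes were called lower more often than higher. Ethylene synthesis and response genes had 4 of 22 higher and 12 lower (median -0.57; 2 higher without chr11/17 replicate 2). EIL1 (AT2G27050), which with EIN3 drives ethylene-responsive transcription, had 20.7 and 22.9 CPM in the libraries labelled chr11/17 and 115 and 119 CPM in Col (-2.42 ± 0.09). Brassinosteroid genes had 4 of 31 higher and 19 lower (median -0.55). PRE1 (AT5G39860), a small helix-loop-helix protein that promotes elongation, had 2.09 and 2.30 CPM in the chr11/17-labelled libraries and 34.1 and 39.1 CPM in Col (-4.06 ± 0.17). Type-A response regulators, the feedback inhibitors of cytokinin signalling, had 1 of 9 higher and 4 lower (median -0.52), a share of 44.4% against 34.4% of all genes. ARR7 (AT1G19050) had 3.04 and 3.83 CPM in the chr11/17-labelled libraries and 16.4 and 16.8 CPM in Col (-2.27 ± 0.19). Receptors and phosphatases of abscisic acid had 8 of 18 higher and 5 lower. The phosphatase HAI1 (AT5G59220), which the hormone induces, had 37.3 and 34.8 CPM in the chr11/17-labelled libraries and 1.81 and 1.81 CPM in Col (4.31 ± 0.14), and the receptor PYL2 (AT2G26040) 0.590 and 1.7 CPM in the chr11/17-labelled libraries and 10.9 and 9.12 CPM in Col (-3.10 ± 0.29). Of the 7 small GASA peptides, 4 were higher and 3 lower. GASA1 (AT1G75750) had 1077 and 1002 CPM in the chr11/17-labelled libraries and 49.3 and 39.3 CPM in Col (4.55 ± 0.19), whereas GASA4 (AT5G15230) had 99.4 and 120.1 CPM in the chr11/17-labelled libraries and 316 and 392 CPM in Col (-1.69 ± 0.12).

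Nutrient genes differed by pathway. Phosphate starvation genes had 8 of 26 higher and 15 lower (median -0.72). IPS1 (AT3G09922), a non-coding RNA induced when phosphate is short, had 0.136 and 0.680 CPM in the libraries labelled chr11/17 and 70.2 and 50.97 CPM in Col (-7.16 ± 0.84). RNS1 (AT2G02990), a ribonuclease of the same list, had 240.0 and 228 CPM in the chr11/17-labelled libraries and 4.55 and 3.84 CPM in Col (5.80 ± 0.20). Nitrate uptake and assimilation had 11 of 29 higher and 16 lower (median -0.50). GS2 (AT5G35630), the plastid glutamine synthetase, had 468 and 519 CPM in the chr11/17-labelled libraries and 1846 and 1455 CPM in Col (-1.74 ± 0.12), and the cytosolic GLN1.3 (AT3G17820) 222 and 205 CPM in the chr11/17-labelled libraries and 65.7 and 61.6 CPM in Col (1.74 ± 0.09). Sulphur assimilation had 19 of 30 higher and 7 lower (median 0.51). Genes of sugar starvation and senescence had 16 of 28 higher and 5 lower (median 0.43). SAG13 (AT2G29350), a senescence marker, had 371 and 328 CPM in the chr11/17-labelled libraries and 1.92 and 2.88 CPM in Col (7.18 ± 0.37). ASN1 (AT3G47340), an asparagine synthetase of the dark and starvation response, had 3.22 and 2.64 CPM in the chr11/17-labelled libraries and 51.3 and 51.6 CPM in Col (-4.13 ± 0.14).

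Seed-type genes beyond the storage proteins were also present. Oleosins and other oil body proteins had 5 of 7 higher and 1 lower (median 6.46; 5 higher and 0 lower by total counts; median 7.79 without Col replicate 2). PER1 (AT1G48130), a seed peroxiredoxin, had 39.6 and 19.05 CPM in the libraries labelled chr11/17 and 0 and 0.480 CPM in Col (6.88 ± 0.63), so its level differed between the chr11/17-labelled libraries. Late embryogenesis abundant proteins, which protect drying cells, had 17 of 22 higher and 1 lower (median 0.91). LEA18 (AT2G35300) had 43.8 and 22.2 CPM in the chr11/17-labelled libraries and 0.110 and 0.906 CPM in Col (5.99 ± 0.53), and the more widely expressed ERD14 (AT1G76180) 1260.4 and 910.3 CPM in the chr11/17-labelled libraries and 339 and 426 CPM in Col (1.5 ± 0.15).

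Markers of cell types were read beside these groups. In whole seedlings fewer cells of a type and less RNA per cell cannot be told apart. Stomatal lineage and guard cell markers had 6 of 8 lower and none higher (median -1.60), with sums of 32.6 and 30.7 CPM in the libraries labelled chr11/17 and 99.7 and 111 CPM in Col. KAT1 (AT5G46240), a potassium channel of guard cells, had 2.54 and 2.38 CPM in the chr11/17-labelled libraries and 29.9 and 38.4 CPM in Col (-3.79 ± 0.15). SPCH (AT5G53210), the factor that starts the lineage, had 1.13 and 1.45 CPM in the chr11/17-labelled libraries and 4.93 and 4.37 CPM in Col (-1.84 ± 0.23; outside the naming rule). All 4 mesophyll markers (RBCS1A, CAB1, RCA and GLDP1) were lower, and 3 of them overlap a neighbour. They are themselves genes of photosynthesis or photorespiration, so their fall repeats the results above and is no separate support. Phloem markers had 3 of 4 lower and none higher (1 higher and 3 lower by total counts). SUC2 (AT1G22710), the sucrose transporter of companion cells, had 8.26 and 8.72 CPM in the chr11/17-labelled libraries and 135 and 123 CPM in Col (-3.92 ± 0.14). Xylem markers had 4 of 6 lower and none higher (1 higher and 3 lower by total counts), trichome markers 3 of 6 lower and 1 higher, and root markers 4 of 11 lower and 2 higher. Of 13 embryo and seed markers 9 could be tested, with 8 called higher and 1 lower (8 higher and 0 lower by total counts). Their sums were 486 and 208 CPM in the libraries labelled chr11/17 and 5.26 and 4.91 CPM in Col. Members near silence in Col could pass the filter on low counts only through libraries where they were high. That tilts the share called higher, so the share is no added support. Of 10 pollen and sperm markers 5 could be tested and of 8 tapetum markers 2, with 1 pollen marker called higher and 2 lower (median -1.16, and 0.73 with only the 2 genotypes in the fit) and no tapetum marker called. Their sums were 11.2 and 9.91 CPM for pollen and 7.67 and 6.04 CPM for tapetum in the libraries labelled chr11/17, against 4.0 and 7.09 CPM and 7.13 and 7.36 CPM in Col. Without Col replicate 2, or without chr11/17 replicate 1, no pollen marker was called lower. The part of tissue makeup in the results above was not tested.

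The contrast with rlt1/2, the mutant of the partner subunits, was tested directly. It uses the same chr11/17 libraries as the comparison with Col, so the counts are set side by side only. Relative to rlt1/2, 6112 genes rose (29.3%) and 6274 fell (30.1%) in chr11/17, and relative to fha2 7311 rose (35%) and 7431 fell (35.6%). The rlt1/2 libraries themselves had 3912 genes higher than Col (18.7%) and 3912 lower (18.7%). Photosystem subunits were lower in 23 of 23 genes than in rlt1/2 and higher in none. In rlt1/2 itself 23 of 23 were also lower than in Col (median -0.79), and the median of fha2 over Col was -0.54. Cytosolic ribosomal proteins were higher in 126 of 140 and lower in 2, proteasome subunits higher in 39 of 46 and lower in 1, and histones higher in 37 of 41 and lower in 2. DNA damage genes were higher in 15 of 22 and lower in 3. Relative to Col, rlt1/2 itself had 11 DNA damage genes higher and 0 lower, and 14 proteasome genes higher and 0 lower. It had 10 histone genes higher and 5 lower, and 22 cytosolic ribosomal genes higher and 3 lower. SMR7 had 124 and 87.1 CPM in the libraries labelled chr11/17 and 2.1 and 0.997 CPM in rlt1/2 (6.09 ± 0.25; edgeR adjusted p = 3.75e-09).

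Other families were set against rlt1/2 in the same way. Class III peroxidases were lower than in rlt1/2 in 36 of 65 genes and higher in 11. Phosphate starvation genes were lower in 16 of 26 and higher in 5, and sulphur assimilation genes lower in 15 of 30 and higher in 9. Type-A response regulators were higher in 6 of 9 and lower in none. The rlt1/2 libraries themselves differed from Col in these lists. They had 34 peroxidase genes higher than Col and 0 lower, 13 phosphate starvation genes higher and 5 lower, and 24 sulphur genes higher and 0 lower. Of the type-A genes, 7 were lower in rlt1/2 than in Col and 0 higher. IPS1 had 0.136 and 0.680 CPM in the libraries labelled chr11/17 and 35.04 and 51.6 CPM in rlt1/2 (-6.68 ± 0.86; edgeR adjusted p = 2.83e-05). ARR4 (AT1G10470) had 71.9 and 71.05 CPM in the libraries labelled chr11/17 and 62.9 and 49.4 CPM in rlt1/2 (0.35 ± 0.12; edgeR adjusted p = 0.0246). Oil body genes were higher in 3 of 7 and lower in none, and rlt1/2 itself had 4 higher and 0 lower than Col (median 4.59). Embryo and seed markers were higher than in rlt1/2 in 7 of 9 and lower in none. Relative to Col, rlt1/2 itself had 7 of these markers higher and 0 lower (median 6.84), with sums of 122 and 104.9 CPM. Seed-type genes were thus higher than Col in both double mutants.

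Genes outside the lists gave the following extremes by the naming rule. Apart from GPT2, the highest included JRG21 (AT3G55970), a jasmonate-regulated gene, with 36.3 and 32.1 CPM in the libraries labelled chr11/17 and 0.164 and 0.107 CPM in Col (7.92 ± 0.26). CSLA01 (AT4G16590), of the cellulose synthase-like A group, had 61.3 and 59.1 CPM in the chr11/17-labelled libraries and 0.274 and 0.320 CPM in Col (7.63 ± 0.26), and the oxidoreductase AT2G21260 167 and 134 CPM in the chr11/17-labelled libraries and 0.658 and 0.480 CPM in Col (8.04 ± 0.19). Among the lowest, SUS4 (AT3G43190), a sucrose synthase known to respond to low oxygen, had 0.454 and 0.638 CPM in the chr11/17-labelled libraries and 59.6 and 59.6 CPM in Col (-6.75 ± 0.19). AT1G66100, a thionin, had 1.04 and 0.340 CPM in the chr11/17-labelled libraries and 70.5 and 92.6 CPM in Col (-6.89 ± 0.26). HOL2 (AT2G43920), a methyltransferase, had 0.136 and 0.170 CPM in the chr11/17-labelled libraries and 17.6 and 16.05 CPM in Col (-6.72 ± 0.27). Each Col value of the first group and each chr11/17 value of the second rested on few counts at this depth, so these folds are imprecise.

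Neighbouring genes sometimes moved together. Along the tested genes of the annotation there were 8 runs of at least 6 neighbours called in 1 direction by at least 2-fold, 5 higher and 3 lower, holding 52 genes; over all genes, 16.5% were higher and 17.9% lower by at least that fold. One higher run on chromosome 2 joined GSTU7 to GSTU2, 6 glutathione S-transferase genes with log2 fold changes of 1.22 to 9.61. Another on chromosome 2 ran from the trypsin inhibitor gene TI1 to AT2G43550, with 6 genes at 1.36 to 6.37. A lower run on chromosome 1 lay around SAUR63, an auxin-induced growth gene, with 6 genes from AT1G29420 to AT1G29465 at -5.71 to -1.01. Tandem copies share sequence, so the separation of reads between them is uncertain, and no chance level was set for such runs.

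The remaining lists were called in both directions. Aquaporins had 11 of 31 higher and 14 lower (14 higher and 11 lower by total counts). Lipid transfer and albumin-like proteins had 30 and 28 of 70, with LTP4 (AT5G59310) at 795 and 697 CPM in the libraries labelled chr11/17 and 7.40 and 14.3 CPM in Col (6.10 ± 0.31). Calmodulin-like and CBL-CIPK genes had 17 and 26 of 74 (26 higher and 15 lower by total counts). Cysteine-rich receptor kinases had 8 higher and 12 lower of 31 (5 higher without chr11/17 replicate 2), and wall-associated kinases 3 and 2 of 10 (3 higher and 1 lower by total counts). U-box and ATL ligases had 6 and 15 of 35 (9 higher and 13 lower by total counts). Terpene synthases had 4 higher and 13 lower of 24 (6 higher and 10 lower by total counts; 7 higher without Col replicate 2), and pectin methylesterases 4 and 5 of 14 (6 higher and 4 lower by total counts). LBD factors had 6 and 7 of 21 (8 higher and 6 lower by total counts). For bZIP factors the calls were 9 and 12 of 32 (16 higher and 8 lower by total counts, and 8 higher and 6 lower of 22 without overlapping genes). Growth-regulating factors had 3 and 3 of 9 (3 higher and 1 lower by total counts, and 1 higher without Col replicate 2). Genes of cytokinin synthesis and breakdown had 3 higher and 5 lower of 18 (8 higher and 4 lower by total counts), and those of strigolactone and karrikin 4 and 8 of 13 (4 higher and 5 lower by total counts). Plant defensins had 4 and 2 of 10 (2 higher without Col replicate 1 and without chr11/17 replicate 1), and salt, proline and raffinose genes 1 and 3 of 10 (2 higher and 2 lower by total counts).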

How the data were processed

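Messenger RNA of 8 seedling libraries was sequenced, 2 for each genotype. The authors deposited estimated counts (expected counts) per gene and library for 25198 genes, and FPKM values with their means beside them. They also deposited a table of log2 fold changes with p-values and q-values for each mutant against Col. Of these only the counts were used here. Per the submitters' processing notes the tools were Bowtie2, RSEM and DESeq2 and the build TAIR10; versions, and whether counting used strand, are not given in the sources used here. RSEM shares out reads that match several copies, and unless strand was used, genes that overlap exchange reads; 6411 of the 25198 genes (25.4%) overlap another in the reference annotation. Symbols that had become dates were replaced from that annotation for 22 genes.

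Counts were rounded to whole numbers, filtered with filterByExpr by genotype (minimum count 10), which left 20866 genes, scaled with TMM factors and fitted in edgeR 4.0.16 (R 4.3.3) with the quasi-likelihood test on all 8 libraries. The p-values were adjusted by Benjamini-Hochberg over all genes tested and called under 0.05. Total counts were 20962194 to 22012120 per library, and the libraries of a genotype differed beyond sampling noise (chi-square per degree of freedom 4.43 to 12.9). The procedure was run on counts simulated from the Col means with few genes changed. That setting does not cover a difference as broad as the one found here. The 85 gene lists and the members were chosen with earlier results of these data known. From each list up to 3 called members with the largest fold change could be named, given at least 5 CPM in the higher genotype, at least 4 counts in each, libraries that did not overlap and no overlapping gene, plus its highest member; over genes in no list, the 8 highest and 8 lowest. Alternatives were DESeq2 1.42.0, limma-voom (limma 3.58.1), RLE and total-count scaling, other filters, no overlapping genes, only the 2 genotypes, a replicate block and leaving out each library. Positions in the reference annotation served to find overlapping genes, neighbours and chromosomes; no coordinates or sequences are given, since the reference assembly carries another name than the build of the files.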

Additional observations from a re-analysis of the deposited data

Results flagged for a closer look

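Genes named by the rule or outside it were flagged when both double mutants differed from Col by at least 2-fold in opposite directions. Both differences and the direct contrast of chr11/17 with rlt1/2 had to be called, and 2 of the 339 genes passed. HB4 (AT2G44910), a homeodomain-leucine zipper factor, had 0.408 and 0.850 CPM in the libraries labelled chr11/17, 20.9 and 20.8 CPM in rlt1/2 and 7.62 and 8.58 CPM in Col. Its log2 fold change was -5.02 for chr11/17 over rlt1/2 (SE 0.21; edgeR adjusted p = 4.3e-09), -3.66 for chr11/17 over Col and 1.36 for rlt1/2 over Col. ATSDI1 (AT5G48850), a gene induced by sulphur deficiency, had 4.49 and 3.83 CPM in the libraries labelled chr11/17, 94.6 and 96.1 CPM in rlt1/2 and 37.3 and 24.8 CPM in Col. Its log2 fold change was -4.52 for chr11/17 over rlt1/2 (SE 0.19; edgeR adjusted p = 4.2e-09), -2.90 for chr11/17 over Col and 1.62 for rlt1/2 over Col. Over all 20866 genes tested and with no limit on fold, 134 were higher in chr11/17 and lower in rlt1/2 than in Col. The reverse held for 214, each with the direct contrast called. Both comparisons with Col share its 2 libraries.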

How the results depend on the processing

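The 2 libraries per genotype limit the precision, and intervals of single genes rest on a spread shared by all 8 libraries. No gene was called in the opposite direction under any of the alternatives. With chr11/17 over Col, 6636 genes were called higher and 6441 lower by DESeq2, 7239 and 7148 by limma-voom, 7350 and 7081 with RLE size factors, 7286 and 7255 with no filter on low counts (24714 tested), 7040 and 7001 with at least 1 CPM in 2 libraries, 6813 and 6750 with only the 2 genotypes in the fit, and 5298 and 5195 without overlapping genes (15152 tested). Leaving out 1 library at a time gave 6600 to 6914 genes higher and 6554 to 6876 lower; the lone library was then assumed to vary like the other genotypes. The replicate numbers did not pair the libraries: the deviations of same-numbered libraries correlated at -0.11 between chr11/17 and Col and at -0.0745 to 0.0702 between the other genotypes. A fit with the replicate block called 7181 higher and 7112 lower, and the crossed block, added after seeing the data, 7135 and 7095; both left 0 ribosome biogenesis genes lower (1 without the block), and no other count of a list moved by over 1.5 times. Without overlapping genes, fewer members could be tested by construction. The counts called in the direction that led in the main fit were 13 photosystem, 12 light-harvesting, 9 chlorophyll, 7 carotenoid, 28 proteasome, 29 respiratory, 5 primary wall, 5 secondary wall, 6 bZIP, 3 oil body, 5 Polycomb, 16 calmodulin-like, 1 mesophyll, 1 xylem and 5 embryo genes. For bZIP factors the balance then turned, with 8 higher and 6 lower of 22. Scaling by total counts gave 11 autophagy genes higher, 5 strigolactone genes lower, 3 Polycomb genes lower and 15 calmodulin-like genes lower. At least 1 CPM in 2 libraries left 3 oil body genes and 2 defensins higher and 1 pollen marker lower; only the 2 genotypes left 2 defensins and 0 pollen markers; DESeq2 left 6 Polycomb genes lower. With 1 library left out, suberin genes higher ranged from 3 to 5 (7 with all libraries; 3 without Col replicate 2), growth-regulating factors higher from 1 to 3 (3; 1 without Col replicate 2), Polycomb genes lower from 6 to 8 (10; 2 higher and 6 lower without Col replicate 1), defensins higher from 2 to 3 (4; 2 without Col replicate 1 and without chr11/17 replicate 1) and pollen markers lower from 0 to 2 (2; 0 without Col replicate 2 and without chr11/17 replicate 1). With a library left out, other counts of 0, 1 or 2 members moved by 1 member in several lists. DESeq2 also left 9 NAC factors (14), 7 ERF factors (11) and 1 DNA damage gene (3) lower. The oil body median was 5.27 with limma-voom and 7.79 without Col replicate 2 (6.46), and without overlapping genes the medians of chlorophyll synthesis and late embryogenesis genes were -1.04 and 1.53 (-1.66 and 0.91). Of 339 genes named by the rule or outside it, 1 turned direction: STO, a B-box factor, at -0.24 with TMM and 0.04 by total counts. Causes were not tested where the number of genes tested did not change.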
